A study of Spodoptera frugiperda with 3 samples.

Results

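The unigenes described here are the 31 whose best protein match is annotated as an enzyme or close partner of amino acid metabolism, out of 30327 unigenes listed in the processed tables. A unigene is an assembled transcript sequence, and each carries the name of its best hit in the NCBI non-redundant (NR) protein database where 1 was found. The 31 were chosen by 17 terms in that name, such as aminotransferase, proline dehydrogenase, asparagine synthetase and methylcrotonoyl. Of these terms, 3 matched nothing, namely glutamine synthetase, arginase and sarcosine. The NR hit came from Spodoptera litura, a close relative, for 26 of the 31. A UniProt hit was present for 30 members, and in all 30 it held at least 1 of the 17 terms. The match on the word alone also took in 4 proteins that act beside amino acid metabolism proper: an antizyme, an ornithine transporter, a folate-modifying ligase and an enzyme of amino sugar synthesis. They are described with the rest and named as such.

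The libraries came from whole larvae of the fall armyworm, Spodoptera frugiperda, a moth whose larvae feed on crops. All larvae were wild type and raised on an artificial diet, and the labels place them at the fourth instar, the stage of the exposure, whereas the methods give the fifth instar for RNA extraction. Larvae were held for 16 h at 4 °C (T4) or at 40 °C (T40), and the control was held at 25 °C (T25) for a time that is not given. Each temperature had 1 library, made from the RNA of 5 pooled larvae, so a difference between temperatures and a difference between pools of larvae cannot be told apart and no p-value is given.

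Each comparison, T4/T25, T40/T25 and T40/T4, had its own table, and a table lists only the unigenes that the authors had selected in it by fold change and P-value. The smallest fold among listed unigenes, recomputed from the counts, was 2.35 in T4/T25. Every member therefore differs in at least 1 comparison by the way the tables were made, and the fact that it differs is no finding. Where a unigene was listed in 1 table only, its count in the third library was not analysed here. Where counts of both libraries were known from other tables, the ratio was also computed for a comparison in which the unigene was not listed, and the text says so. Folds are ratios of read counts divided by the effective library sizes of 36483914 in T4, 28015943 in T25 and 38643842 in T40. Each fold is followed by its 95% exact Clopper-Pearson interval, which covers counting error only and not the spread between larvae. Levels are given as FPKM, which are read counts divided by transcript length and library size and allow levels of different unigenes to be compared.

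Amino acids released from food or from storage proteins are burned, rebuilt into other amino acids or turned into special products. Aminotransferases move the amino group from 1 carbon skeleton to another, mostly through glutamate, and the remaining carbon enters the citric acid cycle. In insects the fat body is the main organ of this chemistry, surplus nitrogen leaves mostly as uric acid, and tyrosine is the starting material for hardening and darkening the cuticle. Proline serves as a fuel and as a protective solute in several insects.

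At 40 °C against the control, asparagine synthetase, several glyoxylate reductases, both chains of methylcrotonoyl-CoA carboxylase and the alanine and aspartate aminotransferases were higher, by between 2.59-fold and 32.6-fold. Tyrosine aminotransferase, alanine-glyoxylate aminotransferase, cystathionine gamma-lyase and both enzymes of proline breakdown were lower, tyrosine aminotransferase down to 1 read. The enzyme that starts proline from glutamate was lower too, by 3.34-fold. So were 4-aminobutyrate aminotransferase, by 9.30-fold, and the first enzyme of serine synthesis, by 3.04-fold. At 4 °C against the control, serine-pyruvate aminotransferase and asparagine synthetase were higher, by 5.46-fold and 4.49-fold. Glyoxylate reductases were higher there too, by 2.44-fold, 5.48-fold and, on 11 reads against 1, 8.45-fold. The alpha chain of methylcrotonoyl-CoA carboxylase was 3.66-fold higher. The first enzyme of serine synthesis, S-adenosylmethionine synthase, ornithine decarboxylase and the aspartate and 4-aminobutyrate aminotransferases were lower, by between 3.06-fold and 8.15-fold.

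In T4/T25, 11 members were listed, of which 6 were higher in T4 (54.5%) and 5 were lower. Over all 12173 unigenes listed in that comparison, 55.1% were higher and 44.9% lower in T4, and the 3418 of them with an NR hit split into 49.4% and 50.6%. In T40/T25, 23 members were listed, with 11 higher in T40 (47.8%) and 12 lower. There, 47.1% of all 20077 listed unigenes were higher and 52.9% lower in T40, and the 6121 with an NR hit split into 53.6% and 46.4%. In T40/T4, 22 members were listed, with 12 higher in T40 (54.5%) and 10 lower. Among all 18896 listed unigenes 45.4% were higher and 54.6% lower, and the 5488 with an NR hit split into 56.6% and 43.4%. The members thus had no direction in common, and their balance lay close to that of the tables as a whole. The sizes of their differences were also ordinary, with a median absolute log2 ratio of 2.34 for T4/T25, 2.40 for T40/T25 and 2.42 for T40/T4. Over all listed unigenes these medians were 2.45, 2.67 and 2.57, and over those with an NR hit 2.29, 2.45 and 2.33. The members were deeply counted, with a median of 6981 reads summed over both libraries of T40/T25, against 548 for the listed unigenes with an NR hit. Most member ratios therefore carry a small counting error.

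**Figure D1:**
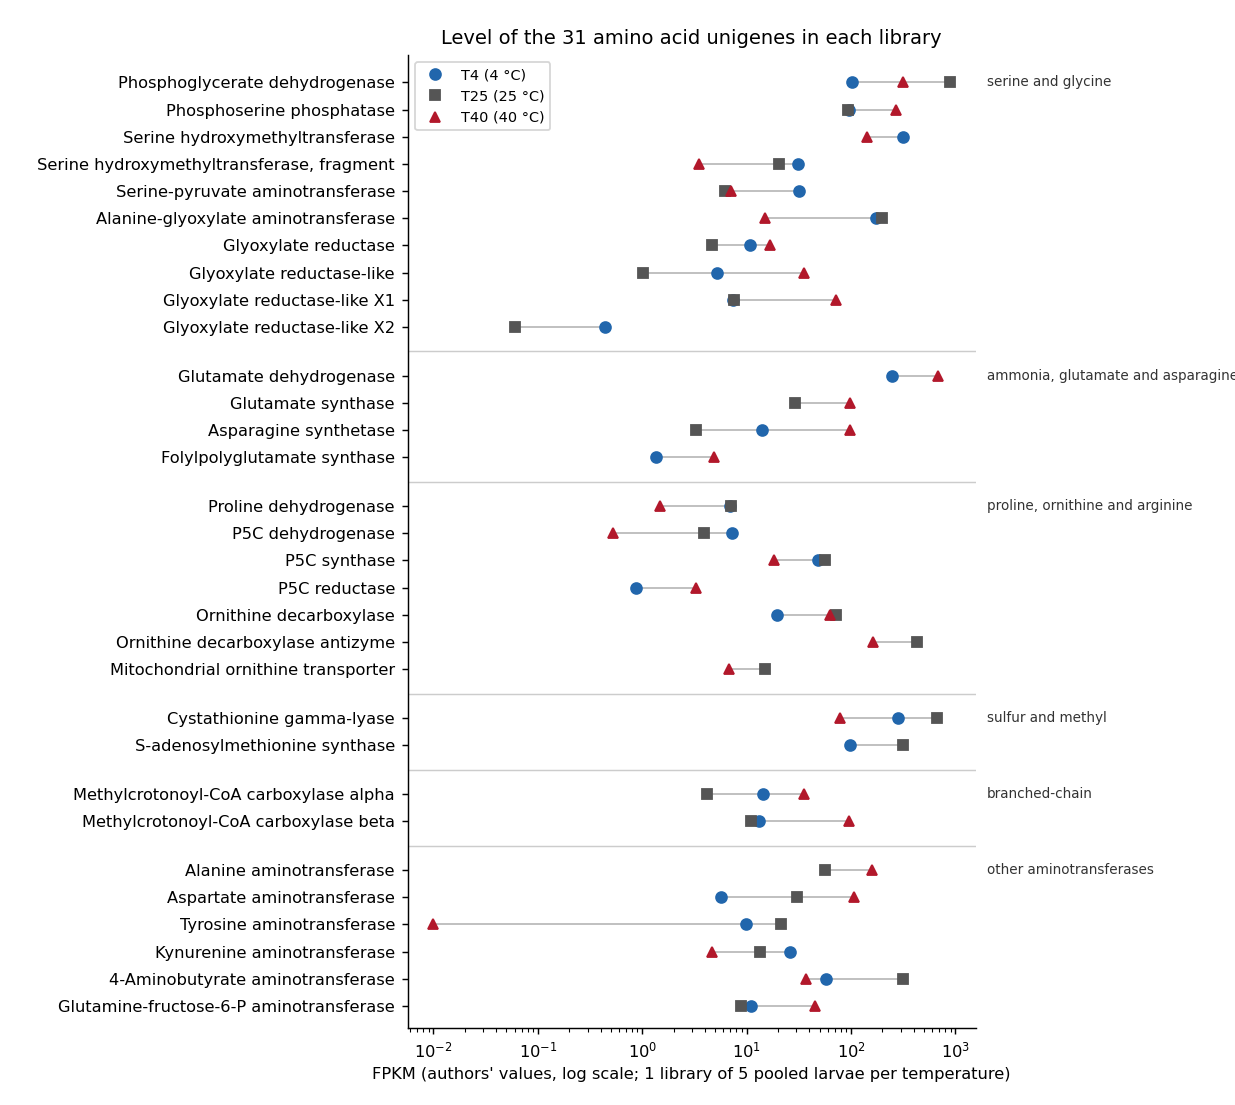
Level of each of the 31 unigenes as the authors' FPKM on a log axis, grouped by role, with 1 point per library (blue circle T4, grey square T25, red triangle T40) and a grey line joining the libraries in which a value is known. Levels ran from 0.01 FPKM for tyrosine aminotransferase in T40 to 885 FPKM for phosphoglycerate dehydrogenase in T25.

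Counts in all 3 libraries were known for 21 members, namely those listed in at least 2 tables. Of these 21, T40 was the highest library for 9 and the lowest for 9. T25 was the lowest library for 9 and the highest for 7. The commonest order, found for 8 members, placed T40 highest and T25 lowest. Only 2 members, phosphoglycerate dehydrogenase and ornithine decarboxylase, were highest in T25 and lowest in T4. The selection behind the tables shapes these orders. A unigene listed in both T40/T25 and T40/T4 with the same direction has T40 highest or lowest by construction. The orders were not counted over the 18805 listed unigenes with counts in all 3 libraries. Whether the orders of the members differ from those was therefore not tested. Judged by FPKM in place of scaled counts, 2 members changed place: T4 became the lowest library for a glyoxylate reductase-like unigene and T25 the highest for proline dehydrogenase, both with nearly equal values in T4 and T25.

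Because whole larvae were sequenced, tissue markers, found by name, were read beside the members. In bulk RNA, fewer cells of a type and less RNA per cell cannot be told apart. Of 4 fat body markers (storage proteins, hexamerin and apolipophorin), 2 were listed in T4/T25 and both were higher in T4, with a summed level of 109400 CPM (read counts scaled to a common library size) against 29170 in T25. In T40/T25 all 4 were listed, with 1 higher and 3 lower, and the sum was 24030 CPM in T40 against 87310 in T25. Muscle markers (myosins, including forms found outside muscle, troponins and tropomyosins) summed to 6550 CPM in T40 against 39410 in T25, with 14 of 30 listed higher and 16 lower. In T4/T25, 18 of 19 listed muscle unigenes were higher in T4 although their sum was lower, 353 against 557 CPM, and in T40/T4 24 of 26 were lower in T40. Cuticle proteins summed to 268 CPM in T40 against 2640 in T25, with 3 higher and 7 lower, and to 2811 CPM in T4 against 1420 in T25, with 5 higher and 5 lower. Midgut markers (trypsins, chymotrypsins, a few of their inhibitors, aminopeptidases and peritrophins) had a higher sum in T40, 11340 CPM against 4428 in T25, with 23 of 37 higher. All 6 hemocyte markers were lower in T40 than in T25, with sums of 151 and 786 CPM. The 3 silk gland markers summed to 0.725 CPM in T40 against 94.9 in T25. The part of these marker differences in the enzyme values was not tested.

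The first group makes and uses serine and glycine. D-3-phosphoglycerate dehydrogenase (c176700_g1_i1), which draws a glycolytic intermediate into serine synthesis, had 15839 reads in T4, 99073 in T25 and 44913 in T40, or 102, 885 and 317 FPKM. No other member with a T25 value had a higher level there. It was 8.15-fold lower in T4 than in T25 (8.01 to 8.28) and 3.04-fold lower in T40 than in T25 (3.01 to 3.08). Between the heated and the chilled library it was 2.68-fold higher in T40 (2.63 to 2.73). Phosphoserine phosphatase (c181739_g3_i1), which completes serine synthesis, had 16293 reads in T4, 11487 in T25 and 42136 in T40, or 95.3, 92.9 and 269.7 FPKM. It was 2.66-fold higher in T40 than in T25 (2.61 to 2.72) and 2.44-fold higher than in T4 (2.40 to 2.49), whereas T4 and T25 lay within 1.09-fold (1.06 to 1.12) and the unigene was not listed there. In T40/T25 these unigenes, of the first and the last enzyme of 1 route, differed in opposite directions, but a shallow second unigene of the phosphatase locus, described with the other pairs below, was lower in T40. Phosphoserine aminotransferase, the enzyme between them, had no unigene among the members.

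Serine hydroxymethyltransferase splits serine into glycine and a one-carbon unit carried by folate. Its main unigene (c182024_g1_i1), of the cytosolic form, had 30861 reads in T4 and 12945 in T40, or 314 and 144 FPKM, and was 2.53-fold lower in T40 (2.47 to 2.58). A second unigene with the same NR hit (c184927_g6_i1) had 314 reads in T4, 148 in T25 and 33 in T40. It was 10.1-fold lower in T40 than in T4 (7.03 to 14.9) and 6.19-fold lower than in T25 (4.22 to 9.32). This second unigene had no UniProt or Pfam hit and few reads for its FPKM, as a short sequence has, and how reads were divided between the pair is uncertain.

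Several enzymes of glyoxylate and hydroxypyruvate, small acids that stand between serine and glycine, were among the members. Serine-pyruvate aminotransferase (c188055_g4_i1), which in mammals also converts glyoxylate to glycine, had 5812 reads in T4, 818 in T25 and 1185 in T40, or 31.8, 6.19 and 7.10 FPKM. It stood out in the chilled library, 5.46-fold higher than in T25 (5.07 to 5.88), and T40 was 5.20-fold lower than T4 (4.88 to 5.54), while T40 and T25 differed by 1.05-fold with an interval that includes 1 (0.960 to 1.15). Alanine-glyoxylate aminotransferase 2 (c181420_g6_i1), a mitochondrial enzyme that turns glyoxylate into glycine, had 14665 reads in T4, 12284 in T25 and 1166 in T40, or 172, 199.6 and 15.0 FPKM. Here the heated library stood alone, 14.5-fold lower than T25 (13.7 to 15.4) and 13.3-fold lower than T4 (12.6 to 14.2). The pair of enzymes with related reactions thus differed in which library was set apart.

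Glyoxylate/hydroxypyruvate reductases, which reduce these acids to glycolate and glycerate, were matched by 4 unigenes with 4 different NR hits from S. litura. The first (c179598_g1_i1) had 543 reads in T4, 171 in T25 and 785 in T40, and was 2.44-fold higher in T4 (2.05 to 2.91) and 3.33-fold higher in T40 (2.82 to 3.95) than in T25. The second (c130189_g1_i3) had 321 reads in T4, 45 in T25 and 2025 in T40, or 5.20, 1.01 and 35.8 FPKM. It was 5.48-fold higher in T4 (4.00 to 7.66) and 32.6-fold higher in T40 (24.3 to 44.9) than in T25, the highest T40/T25 ratio among the members, with an interval that overlaps that of asparagine synthetase below. The third, an isoform X1 (c232551_g1_i1), had 492 reads in T4, 361 in T25 and 4362 in T40, and was 8.76-fold higher in T40 than in T25 (7.87 to 9.78) with T4 and T25 nearly equal. An isoform X2 (c102917_g2_i1) had 11 reads in T4 and 1 in T25, and its ratio of 8.45 (1.23 to 364) is loose because so few reads were counted. No listed ratio of these 4 was lower at a stress temperature than in T25. They are related sequences, so reads may have been divided among them in the counting.

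**Figure D2:**
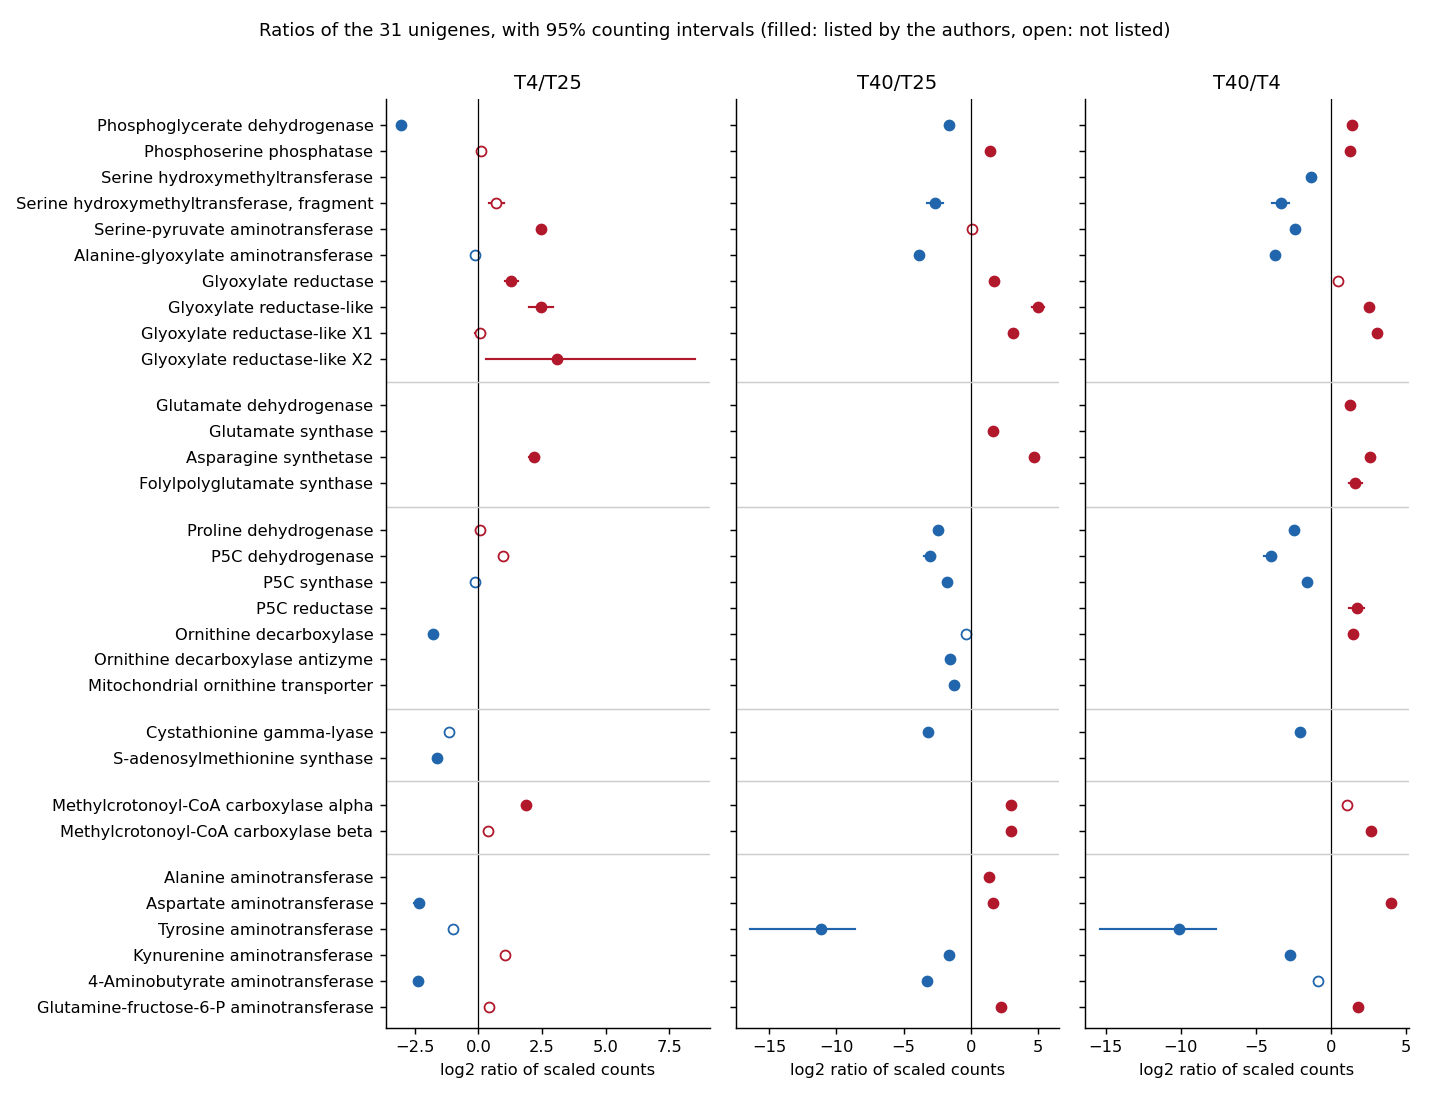
Log2 ratio of scaled counts for the 31 unigenes in T4/T25, T40/T25 and T40/T4, with 95% counting intervals as horizontal bars (red higher and blue lower in the first-named library). Filled points were listed by the authors in that comparison and open points were not, and the bar is hidden behind the point for deeply counted unigenes; in T40/T25 the points of the serine and glycine group lie on both sides of 0, from -3.86 to 5.03.

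The members of the ammonia, glutamate and asparagine group were higher in T40 in each comparison with T40 that listed them. Among them is folylpolyglutamate synthase, which acts beside amino acid metabolism proper. Of all listed unigenes, 47.1% were higher in T40/T25 and 45.4% in T40/T4, and of those with an NR hit 53.6% and 56.6%. A second unigene of the glutamate synthase locus, which is no member and is described with the other pairs below, was lower in T40 than in T4. The glutamate synthase member itself was listed only in T40/T25. Asparagine synthetase (c189653_g1_i1), which stores nitrogen by making asparagine from aspartate, had 1387 reads in T4, 237 in T25 and 8821 in T40, or 14.0, 3.30 and 97.2 FPKM. It was higher at both extremes, 4.49-fold in T4 (3.91 to 5.18) and 26.98-fold in T40 (23.7 to 30.8) against T25, and T40 was 6.004-fold higher than T4 (5.67 to 6.36). Glutamate dehydrogenase (c160981_g1_i1), the mitochondrial enzyme that releases or binds ammonia at glutamate, had 21037 reads in T4 and 53367 in T40, or 245 and 678 FPKM. It was 2.40-fold higher in T40 (2.36 to 2.43), and no other member with a T40 value had a higher level than its 678 FPKM. Glutamate synthase (c188707_g4_i1), which makes glutamate with nitrogen from glutamine, had 6513 reads in T25 and 27854 in T40, and was 3.10-fold higher in T40 (3.02 to 3.19). Its NR hit was from another moth, Amyelois transitella. Folylpolyglutamate synthase (c184189_g1_i3), which lengthens the glutamate tail of folates and entered only through its name, had 69 reads in T4 and 227 in T40, and was 3.11-fold higher in T40 (2.36 to 4.13). In this group the split was 1 higher and 0 lower in T4/T25, 2 and 0 in T40/T25, and 3 and 0 in T40/T4.

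In the group of proline, ornithine and arginine, 0 members were higher and 5 lower in T40/T25, where 52.9% of all listed unigenes were lower, and 2 of the 5 (the antizyme and the ornithine transporter) act beside amino acid metabolism proper. The group had 2 higher and 3 lower in T40/T4, and 0 higher and 1 lower in T4/T25. Proline dehydrogenase (c186160_g2_i1), the first step of proline breakdown in mitochondria, had 1040 reads in T4, 767 in T25 and 200 in T40, or 6.97, 7.10 and 1.47 FPKM. It was 5.29-fold lower in T40 than in T25 (4.52 to 6.21) and 5.51-fold lower than in T4 (4.73 to 6.44). Delta-1-pyrroline-5-carboxylate (P5C) dehydrogenase (c167335_g1_i1), the next step, which delivers glutamate, had 922 reads in T4, 361 in T25 and 60 in T40, or 7.24, 3.92 and 0.52 FPKM. T40 was 8.30-fold lower than T25 (6.30 to 11.1) and 16.3-fold lower than T4 (12.5 to 21.5), and T4 was 1.96-fold higher than T25 (1.74 to 2.22) without being listed. Both breakdown enzymes were therefore lowest in the heated library.

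On the side of synthesis, P5C synthase (c184047_g5_i1), which starts proline and ornithine from glutamate, had 5188 reads in T4, 4409 in T25 and 1823 in T40, or 48.1, 56.6 and 18.5 FPKM. It was 3.34-fold lower in T40 than in T25 (3.16 to 3.53) and 3.01-fold lower than in T4 (2.86 to 3.18). P5C reductase (c179236_g1_i1), which makes proline in the last step, had 44 reads in T4 and 154 in T40, and was 3.30-fold higher in T40 (2.35 to 4.73). The reductase was by far the weaker signal of the pair, at 0.87 FPKM in T4 and 3.31 FPKM in T40.

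Ornithine decarboxylase (c183211_g1_i2), which opens the route to polyamines, had a lower count in the cold than in both other libraries. It had 2537 reads in T4, 6740 in T25 and 7478 in T40, or 19.5, 71.6 and 62.9 FPKM, and was 3.46-fold lower in T4 than in T25 (3.31 to 3.62) and 2.78-fold higher in T40 than in T4 (2.66 to 2.91). T40 was 1.24-fold lower than T25 and not listed. Its antizyme (c169263_g4_i1), a protein that binds the decarboxylase and directs it to degradation, had 28468 reads in T25 and 13701 in T40, or 429 and 163 FPKM, and was 2.87-fold lower in T40 (2.81 to 2.93). The mitochondrial ornithine transporter (c153564_g1_i3) had 1226 reads in T25 and 704 in T40 and was 2.40-fold lower in T40 (2.19 to 2.64).

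Sulfur and methyl metabolism had 2 members, and each was lower at the stress temperature at which it was listed against T25. Cystathionine gamma-lyase (c177308_g6_i1), which releases cysteine from cystathionine, had 22977 reads in T4, 39488 in T25 and 5930 in T40, or 279.7, 665 and 78.9 FPKM. It was 9.19-fold lower in T40 than in T25 (8.94 to 9.44) and 4.10-fold lower than in T4 (3.99 to 4.22), and T4 was 2.24-fold lower than T25 without being listed. S-adenosylmethionine synthase (c185911_g6_i1), which makes the methyl donor of most methylation reactions, had 12586 reads in T4 and 29549 in T25, or 97.4 and 316 FPKM, and was 3.06-fold lower in T4 (2.99 to 3.12). Its T40 value was not analysed here.

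Methylcrotonoyl-CoA carboxylase, a mitochondrial enzyme of leucine breakdown, is built of an alpha and a beta chain, and both were members. The alpha chain (c187742_g2_i1) had 1927 reads in T4, 404 in T25 and 4388 in T40, or 14.4, 4.16 and 35.8 FPKM. The beta chain (c183769_g2_i1) had 1289 reads in T4, 773 in T25 and 8591 in T40, or 13.2, 10.96 and 96.4 FPKM. In T40/T25 the chains had nearly the same ratio, 7.87-fold higher for alpha (7.11 to 8.74) and 8.06-fold higher for beta (7.49 to 8.68), with intervals that overlap. In T4/T25 they parted, since alpha was 3.66-fold higher in T4 (3.29 to 4.09) and beta 1.28-fold higher and not listed.

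The remaining aminotransferases showed no shared direction, with 3 higher and 3 lower in T40/T25. Alanine aminotransferase (c174792_g8_i2), which links alanine with pyruvate, had 4679 reads in T25 and 16736 in T40, or 55.9 and 158 FPKM, and was 2.59-fold higher in T40 (2.51 to 2.68). Cytoplasmic aspartate aminotransferase (c183536_g2_i2), which links aspartate with oxaloacetate, had 329 reads in T4, 1279 in T25 and 5702 in T40, or 5.66, 30.5 and 107 FPKM. It was 5.06-fold lower in T4 (4.48 to 5.73) and 3.23-fold higher in T40 (3.04 to 3.44) than in T25, which made T40 16.4-fold higher than T4 (14.6 to 18.3). Among the 7 members listed in both T4/T25 and T40/T25, it alone differed in opposite directions, while 4 were higher and 2 were lower in both. Of all 6286 unigenes listed in both, 2869 were higher and 2872 lower in both, 202 were lower in T4 and higher in T40, and 343 the reverse, and these comparisons share the T25 library.

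Tyrosine aminotransferase (c180183_g1_i2), the first step of tyrosine breakdown, had 1041 reads in T4, 1602 in T25 and 1 in T40. Its levels were 9.98, 21.2 and 0.01 FPKM. With 1 read behind the T40 value, the ratio to T25 was 2210-fold lower with an interval from 396 to 87330, and that to T4 was 1103-fold lower (198 to 43590). Even at the near end of these intervals the difference exceeded that of every other member. T4 was 2.004-fold lower than T25 (1.85 to 2.17) and not listed.

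Kynurenine/alpha-aminoadipate aminotransferase (c186113_g2_i1), which acts in tryptophan and lysine breakdown, had 1867 reads in T4, 691 in T25 and 307 in T40, or 26.2, 13.4 and 4.71 FPKM. It was 3.11-fold lower in T40 than in T25 (2.71 to 3.56) and 6.44-fold lower than in T4 (5.71 to 7.29). 4-aminobutyrate aminotransferase (c176195_g12_i1), which breaks down the transmitter GABA, had 4629 reads in T4, 18371 in T25 and 2726 in T40, or 57.5, 316 and 37.0 FPKM. It was the member with the clearest peak in the control, 5.17-fold lower in T4 (5.00 to 5.34) and 9.30-fold lower in T40 (8.93 to 9.68) than in T25. Glutamine-fructose-6-phosphate aminotransferase (c178617_g1_i1), which starts the amino sugars from which chitin is made and belongs here by name only, had 2143 reads in T4, 1246 in T25 and 8150 in T40, or 10.99, 8.82 and 45.7 FPKM. It was 4.74-fold higher in T40 than in T25 (4.47 to 5.04) and 3.59-fold higher than in T4 (3.42 to 3.77).

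Some members had a second unigene in the tables with no NR hit whose nucleotide hit was the same S. litura locus, which gives a second reading of the same gene model. There were 4 such unigenes. For aspartate aminotransferase the second unigene (c183536_g1_i1) had 13 reads in T4, 2086 in T25 and 7307 in T40. It was 209-fold lower in T4 (122 to 393) and 2.54-fold higher in T40 (2.42 to 2.67) than in T25, the same directions as the member but with a far larger gap in T4. For 4-aminobutyrate aminotransferase the second unigene (c176195_g5_i1) had 1184 reads in T4, 3378 in T25 and 639 in T40, and was 3.72-fold lower in T4 (3.48 to 3.97) and 7.29-fold lower in T40 (6.70 to 7.95). Here both unigenes had the same order of libraries. For phosphoserine phosphatase the second unigene (c165028_g2_i3) had only 33 reads in T4, 125 in T25 and 14 in T40. It was 12.3-fold lower in T40 than in T25 (7.07 to 23.2), whereas the member was 2.66-fold higher, so the direction at this locus depends on which unigene is read. For glutamate synthase the second unigene (c178817_g2_i1) had 101 reads in T4 and 35 in T40 and was 3.06-fold lower in T40 (2.06 to 4.63), while the member itself was listed only in T40/T25.

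**Figure D3:**
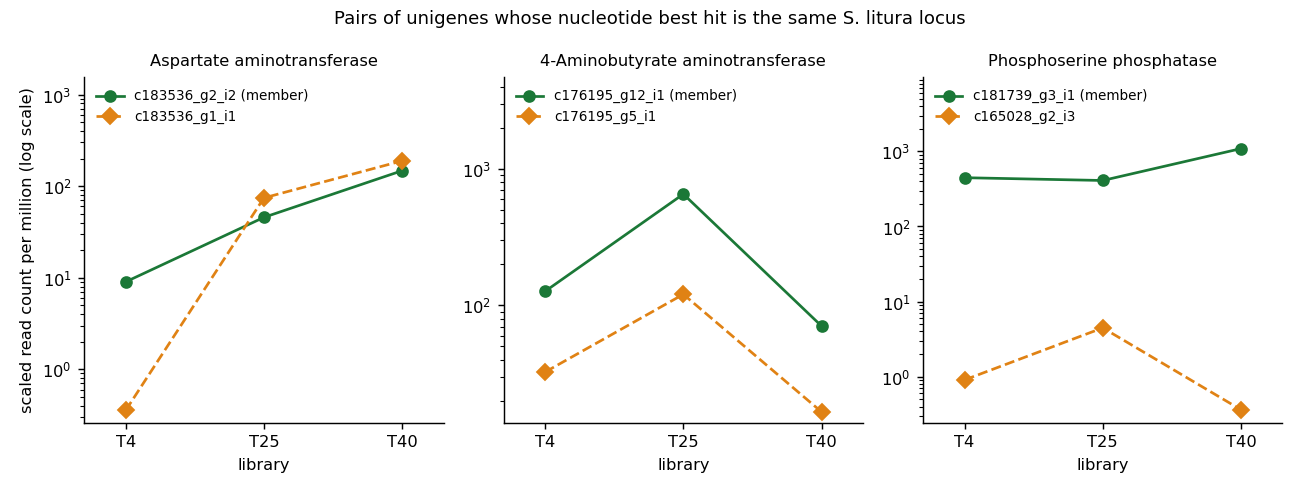
CPM (scaled read count at a common library size, log axis) in T4, T25 and T40 for 3 members (green circles) and the second unigene of the same S. litura locus (orange diamonds). The lines run in parallel for 4-aminobutyrate aminotransferase, part in T4 for aspartate aminotransferase (9.02 against 0.356 CPM) and run in opposite directions from T25 to T40 for phosphoserine phosphatase.

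Other unigenes matched the same terms only in UniProt or nucleotide hits and are not among the 31. The deepest was a sarcosine dehydrogenase (c186558_g1_i1), a mitochondrial enzyme that makes glycine from sarcosine and whose NR hit was an unnamed protein. It had 16813 reads in T4, 27974 in T25 and 2172 in T40, and was 17.8-fold lower in T40 than in T25 (17.0 to 18.6) and 8.20-fold lower than in T4 (7.84 to 8.58). Among the members that form glycine, alanine-glyoxylate aminotransferase was also far lower in T40 than in T25. Serine-pyruvate aminotransferase, which converts glyoxylate to glycine in mammals, was not, at 1.05-fold in T40/T25 (0.960 to 1.15). Another 3 unigenes matched cystathionine beta-synthase, the enzyme that makes the substrate of cystathionine gamma-lyase, and all 3 were higher in T40 than in T4. They shared the same NR hit, so they may be parts of 1 gene and are not separate readings. The shallower ones had 17 reads in T4 and 65 in T40 (c177374_g1_i1), and 26 and 107 (c177374_g2_i1). The deepest of them (c184755_g2_i3) had 221 reads in T4 and 1291 in T40 and was 5.52-fold higher in T40 (4.78 to 6.39).

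The wider set of amino acid enzymes was read from 11 lists of annotation patterns outside the 17 terms, which found 46 unigenes, none of them for histidine. Of these, 15 were higher and 5 lower in T4/T25, 24 higher and 12 lower in T40/T25, and 19 higher and 16 lower in T40/T4, beside the shares of all listed unigenes given above. Tyrosine breakdown is the route that begins with tyrosine aminotransferase. Its second enzyme, a 4-hydroxyphenylpyruvate dioxygenase-like unigene (c183361_g3_i1), had 1923 reads in T4, 1845 in T25 and 6 in T40, and was 424-fold lower in T40 than in T25 (195 to 1157). Homogentisate dioxygenase (c183873_g1_i1), which opens the ring, had 459 reads in T4, 785 in T25 and 101 in T40 and was 10.7-fold lower in T40 than in T25 (8.71 to 13.3). Maleylacetoacetate isomerase (c142147_g3_i2), which follows, had 1713 reads in T4, 1256 in T25 and 237 in T40 and was 7.31-fold lower (6.36 to 8.43). The aminotransferase and these 3 enzymes were all lowest in T40. Fumarylacetoacetase (c214622_g1_i1), the last step, had 4815 reads in T4 and 1617 in T40 and was 3.15-fold lower in T40 (2.98 to 3.34). Henna (c171310_g2_i1), the phenylalanine hydroxylase that makes tyrosine, did not share the pattern, with 3471 reads in T4, 507 in T25 and 4316 in T40. It was 5.26-fold higher in T4 (4.79 to 5.78) and 6.17-fold higher in T40 (5.63 to 6.78) than in T25.

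In branched-chain breakdown the enzymes before methylcrotonoyl-CoA carboxylase pointed the same way as its chains in T40/T25. The 2-oxoisovalerate dehydrogenase, the complex that commits all 3 branched-chain amino acids to breakdown, was represented by an alpha subunit (c180403_g1_i1) with 1002 reads in T4, 965 in T25 and 6733 in T40. The alpha subunit was 5.06-fold higher in T40 than in T25 (4.73 to 5.42). Its beta subunit (c176134_g2_i1) had 717, 341 and 2737 reads in the same order and was 5.82-fold higher (5.20 to 6.53). Isovaleryl-CoA dehydrogenase (c180206_g1_i1), the leucine step just before the carboxylase, had 584 reads in T4, 473 in T25 and 8090 in T40 and was 12.4-fold higher (11.3 to 13.6). In valine breakdown, 3-hydroxyisobutyryl-CoA hydrolase (c173871_g1_i1) had 3520 reads in T4, 122 in T25 and 8076 in T40, and was 22.2-fold higher in T4 (18.5 to 26.8) and 48.0-fold higher in T40 (40.1 to 57.9) than in T25. The exception among the 6 listed unigenes of this list in T40/T25 was a methylmalonate-semialdehyde dehydrogenase (c185851_g2_i1), with 19324 reads in T25 and 6050 in T40, which was 4.41-fold lower (4.28 to 4.54).

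The glycine side continued with glycine N-methyltransferase (c180204_g1_i1), which methylates glycine to sarcosine at the cost of S-adenosylmethionine and had 3767 reads in T4, 112 in T25 and 7455 in T40. It was 25.8-fold higher in T4 (21.4 to 31.5) and 48.3-fold higher in T40 (40.0 to 58.7) than in T25. The enzyme that makes sarcosine and the one that uses it thus had opposite directions in T40/T25. Glycine dehydrogenase (c182109_g11_i1) of the glycine cleavage system had 6338 reads in T4, 5340 in T25 and 29367 in T40 and was 3.99-fold higher in T40 than in T25 (3.87 to 4.11). Aminomethyltransferase (c196360_g1_i1) of the same system had 6425 reads in T4, 1588 in T25 and 5242 in T40, and was 3.11-fold higher in T4 (2.94 to 3.28) and 2.39-fold higher in T40 (2.26 to 2.53) than in T25. In the one-carbon and methyl list, 3 unigenes were higher and 1 lower in T4/T25, where 55.1% of all listed unigenes were higher. Cytosolic 10-formyltetrahydrofolate dehydrogenase (c185217_g6_i1) was 60.4-fold higher in T4 (52.9 to 69.2) and 5-formyltetrahydrofolate cyclo-ligase (c177155_g4_i1) 29.9-fold higher (25.75 to 34.9). Homocysteine S-methyltransferase (c214651_g1_i1) was 3.51-fold higher (3.29 to 3.75) and adenosylhomocysteinase (c175256_g5_i4) 3.68-fold lower (3.11 to 4.37). In lysine breakdown, alpha-aminoadipic semialdehyde synthase (c188167_g2_i1), the first enzyme, had 518 reads in T4, 85 in T25 and 14436 in T40, and was 123-fold higher in T40 than in T25 (99.5 to 154). The other unigene of the lysine list in T40/T25, a saccharopine dehydrogenase-like oxidoreductase (c184729_g2_i3), entered by name, and its part in lysine breakdown was not tested. It had 459 reads in T4, 402 in T25 and 4 in T40 and was 139-fold lower in T40 than in T25 (53.7 to 511). A second unigene with that name (c182752_g1_i2) was 2.76-fold higher in T40 than in T4 (2.37 to 3.23). Glutaryl-CoA dehydrogenase (c177727_g2_i1), also of the lysine list, was 4.50-fold lower in T4 than in T25 (4.32 to 4.69). The aminoadipate aminotransferase described above was lower in T40 than in T25. In tryptophan breakdown, kynurenine 3-monooxygenase (c184175_g2_i2), which competes with the aminotransferase for kynurenine, had 33 reads in T4, 8 in T25 and 1090 in T40, and was 98.8-fold higher in T40 than in T25 (49.95 to 229). Kynurenine formamidase (c184655_g2_i3), which makes the kynurenine that both enzymes use, had 1521 reads in T4, 1600 in T25 and 340 in T40 and was 6.49-fold lower in T40 than in T25 (5.77 to 7.32). Tryptophan dioxygenase (c185796_g2_i2), the step before it, had 85 reads in T4, 211 in T25 and 948 in T40 and was 3.26-fold higher in T40 than in T25 (2.80 to 3.799), so the list held both directions.

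Nitrogen disposal and polyamines were represented too. In the list of amino acid decarboxylases and glutaminase, 2 unigenes were higher and 1 lower in T40/T4, where 45.4% of all listed unigenes were higher. Glutaminase (c187996_g6_i1) was the lower one, with 46 reads in T4, 11 in T25 and 7 in T40. Its level in T40 was 6.96-fold lower than in T4 (3.12 to 18.3). Uricase (c182686_g2_i1), which oxidises uric acid, had 2349 reads in T4, 661 in T25 and 33619 in T40 and was 36.9-fold higher in T40 than in T25 (34.1 to 39.9). The xanthine dehydrogenases, which make uric acid, had 1 unigene higher and 3 lower in T40/T25. All were weak, at 2.47 FPKM or less in T25 and 0.80 FPKM or less in T40, where uricase had 641 FPKM. Among the lower ones, c186294_g3_i2 had 107 reads in T40 and 261 in T25, and c178769_g2_i1 had 15 and 51. The lower ones were 3.37-fold (c186294_g3_i2, 2.68 to 4.25), 4.14-fold (c189118_g1_i1, 2.58 to 6.87) and 4.69-fold (c178769_g2_i1, 2.60 to 8.98) lower in T40. Of these, c189118_g1_i1 had 1019 reads in T4, 72 in T25 and 24 in T40 and was 10.9-fold higher in T4 than in T25 (8.55 to 14.0). The higher one (c185848_g1_i1) had 38 reads in T40 and 2 in T25, with a ratio of 13.8 (3.56 to 118). Argininosuccinate synthase (c174894_g1_i1), which consumes aspartate, had 10028 reads in T4, 10935 in T25 and 2142 in T40 and was 7.04-fold lower in T40 than in T25 (6.72 to 7.38). An asparaginase-like unigene (c182712_g1_i1), whose enzyme undoes the reaction of asparagine synthetase, had 566 reads in T4, 532 in T25 and 2291 in T40. It was 3.12-fold higher in T40 than in T25 (2.84 to 3.44), so enzymes of both directions were higher in the heated library. Spermidine synthase (c186142_g2_i3), which acts after ornithine decarboxylase, had 72 reads in T4, 114 in T25 and 1353 in T40 and was 8.60-fold higher in T40 than in T25 (7.10 to 10.5). Diamine acetyltransferase (c167926_g1_i2), which marks polyamines for breakdown or export, had 560 reads in T4, 144 in T25 and 2255 in T40 and was 11.4-fold higher in T40 than in T25 (9.59 to 13.5). All 3 listed polyamine unigenes were higher in T40 than in T25, while ornithine decarboxylase itself was not listed in that comparison. Over all unigenes listed in T40/T25, 47.1% were higher and 52.9% lower, and 53.6% of those with an NR hit were higher.

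**Figure D4:**
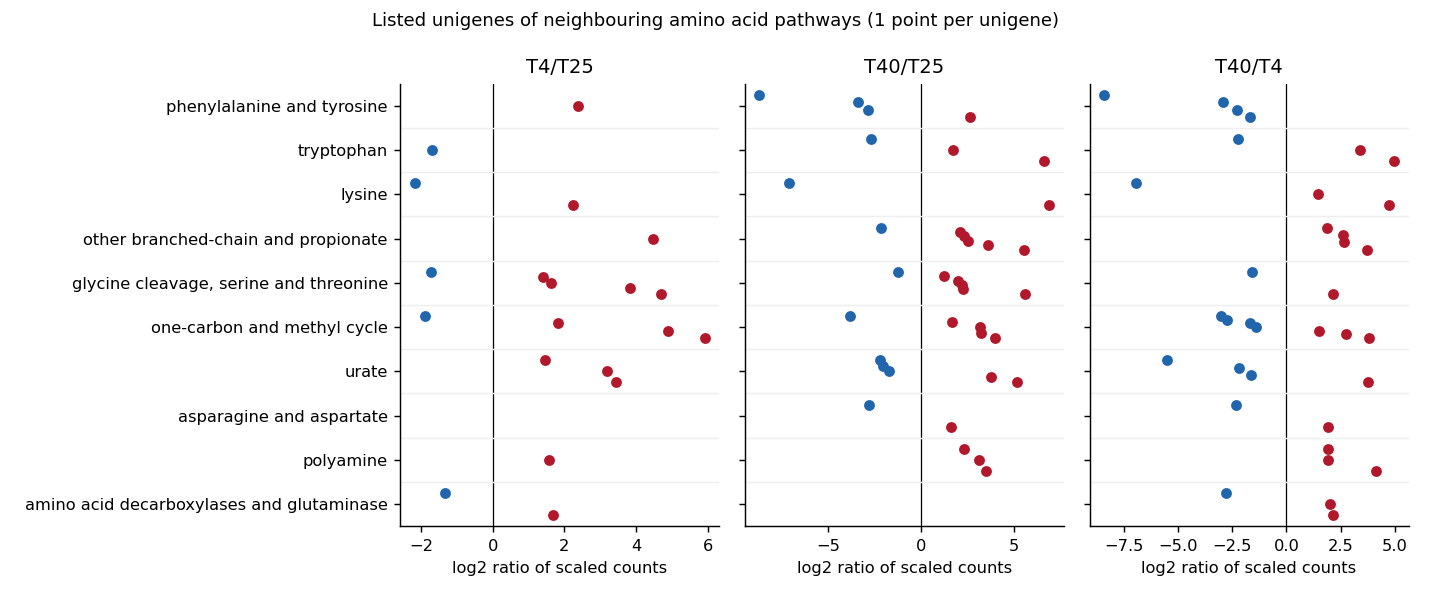
Log2 ratios of scaled counts for the listed unigenes of the wider amino acid lists in T4/T25, T40/T25 and T40/T4, with 1 point per unigene (red higher and blue lower in the first-named library). In T40/T25 the 3 polyamine points lie above 0, 5 of the 6 branched-chain points lie above 0, and 3 of the 4 phenylalanine and tyrosine points lie below 0, down to -8.73. Of all unigenes listed there 47.1% were higher in T40, and of those with an NR hit 53.6%. The lists are small and were chosen with earlier results of these data known.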

How the data were processed

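RNA of 5 pooled whole larvae per temperature was sequenced as 1 library each (TruSeq stranded mRNA, paired reads). The authors trimmed reads with Trimmomatic 0.38, checked them with FastQC 0.11.7, assembled the merged reads with Trinity, aligned with Bowtie 1.1.2 and estimated read counts with RSEM. Their methods name DESeq2 for normalization. Strand use in counting is not given in the sources used here. The deposited tables hold the authors' counts, FPKM and log2 normalized values for the unigenes called in each comparison, without genome coordinates. The log2 values served only to recover the effective library sizes, from counts of at least 100. The authors' fold, mean-level and P-value columns were not used. Reads in the tables came to 16678975 for T25, 21560373 for T40 and 24403584 for T4.

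Counts were divided by the effective library sizes with a pseudocount of 0. The 95% intervals condition on the sum of the counts of both libraries (exact Clopper-Pearson method) and were tested on simulated data. With 1 library per temperature, no test across replicates was run. Members, terms and lists were chosen with earlier results of these data known. Members named are the 5 highest and 5 lowest per comparison that reached 50 reads in their higher library, those with counts in 3 libraries and at least 100 reads, and the 2 deepest of each role. From the wider lists, up to 2 highest and 2 lowest per list qualified, of which a part, mostly beside a member's step, is printed. The few members outside this rule were added after their values were seen. Alternatives were TMM scaling, FPKM ratios, pseudocounts of 1 and 10, read filters, a fold of at least 4, 1 unigene per NR hit and leaving out the 4 proteins outside amino acid metabolism. TMM factors came from edgeR 4.0.16 under R 4.3.3, and all else from scipy 1.17.1, pandas 2.3.3 and numpy 2.4.6 under Python 3.11.15, with plots by matplotlib 3.10.9.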

Additional observations from a re-analysis of the deposited data

Results flagged for a closer look

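Cytoplasmic aspartate aminotransferase (c183536_g2_i2) was the 1 member that lay on opposite sides of the control at the low and the high temperature. Its log2 ratio was -2.34 in T4/T25 and 1.69 in T40/T25. Among all 6286 unigenes listed in both comparisons, 202 were lower in T4 and higher in T40 than in T25, and 343 the reverse. The difference between these ratios was not tested, since each temperature has 1 library, and both ratios share the T25 library. The second unigene of the same S. litura locus (c183536_g1_i1) had the same directions, with log2 ratios of -7.71 and 1.34.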

How the results depend on the processing

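No paired analysis was possible because each temperature has 1 library. For the same reason no library could be left out. None of the 56 listed member ratios changed direction under the alternatives tried. Among ratios that were not listed, those of proline dehydrogenase and an isoform X1 glyoxylate reductase-like unigene in T4/T25 were 1.04 and 1.05 from counts and 0.982 and 0.984 from FPKM. Of the 56, TMM scaling moved 15, FPKM ratios 32, a pseudocount of 1 moved 9 and a pseudocount of 10 moved 46 beyond their counting interval. A fold of at least 4, which keeps fewer members by its construction, left 4 higher and 3 lower in T4/T25, 6 higher and 7 lower in T40/T25, and 5 higher and 8 lower in T40/T4. The read filters, 1 unigene per NR hit and leaving out the 4 proteins outside amino acid metabolism changed these counts by at most 2, and TMM scaling and FPKM ratios by 0. The log2 ratio from FPKM was compared with that from counts over listed unigenes with at least 1 FPKM in both libraries. The median difference was 0.12 in T40/T25, 0.21 in T40/T4 and -0.09 in T4/T25. TMM scaling shifted the log2 ratios by 0.10 or less in size. Depth limits the value of tyrosine aminotransferase in T40, which rests on 1 read, and of the isoform X2 glyoxylate reductase-like unigene, with 11 reads in T4 and 1 in T25. Unigenes that the tables do not list were not analysed here, so the number of amino acid enzymes without a difference is unknown.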
